A study of Mus musculus with 8 samples.

Results

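The epidermal differentiation complex is a cluster of genes on mouse chromosome 3 whose products build the outer layers of the epidermis. Its members were taken from the count tables by symbol: every row named Sprr, Lce or S100a followed by a digit, and the single genes Lor, Ivl, Flg2, Rptn, Hrnr, Tchh, Tchhl1, Crnn, Crct1 and Kprp. This gave 59 of 23432 symbols, with 10 single genes, 15 Sprr, 20 Lce and 14 S100a members. Flg, which encodes filaggrin, belongs to the same cluster and was not analysed here. RNA was sequenced from 8 libraries, 2 in each of 4 groups. In the E16.5 experiment, K14-H2BGFP+ cells were sorted by FACS from back skin of control and MOFfl/fl/K14Cre embryos (MOF cKO), so both groups carried a transgene in which the Krt14 promoter drives a histone H2B tagged with GFP. In the P0.5 experiment, total epidermis lifted off the dermis with dispase was taken from control and Kansl1fl/fl/K14Cre pups (Kansl1 cKO). Controls, called Control in the labels, were littermates according to the study, which describes those of MOF cKO animals as wildtype or heterozygous. The strain background was mixed, from C57Bl/6J and CD-1, and the floxed Kansl1 allele loses exon 3. Cre was driven by the Krt14 promoter, which is active in skin epithelium and not in dermis, and cells in which the allele was not recombined are possible in such a line. MOF, listed as Kat8, is the acetyltransferase for lysine 16 of histone H4, and Kansl1 is a subunit of the NSL complex, which contains MOF. The question put to these genes was how their RNA levels differed between each cKO and its control.

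Keratinocytes leave the basal layer, pass through the spinous and granular layers and end as dead cornified cells. In the granular layer transglutaminases crosslink precursor proteins under the plasma membrane into the cornified envelope. Involucrin (Ivl) and loricrin (Lor) are such precursors, the small proline-rich proteins (Sprr) act as cross-bridges between them, and the late cornified envelope proteins (Lce) are added late. The fused S100 proteins, here Flg2, Rptn, Hrnr, Tchh, Tchhl1 and Crnn, join a calcium-binding domain of the S100 type to long repeats and pack the keratin network or the envelope. The S100a genes encode small calcium-binding proteins, and many of them are active outside the cornified layers, among them S100a8 and S100a9, whose products form calprotectin in neutrophils, monocytes and stressed keratinocytes.

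All 59 members lay on chromosome 3 between 90511034 and 93564643 of mm10 (GENCODE M21 annotation), a span of 3.05 Mb. The order along the chromosome ran from 12 S100a genes at the low-coordinate end through Lor, the Sprr genes, Ivl, the Lce genes and the fused S100 genes to S100a11 and S100a10 at the other end. In the longest coding transcript, all 15 Sprr and all 20 Lce members had their coding sequence in 1 exon, and 12 of 14 S100a members had it in 2. Coding sequences ran from 204 bases in the shortest Sprr member to 10233 bases in Hrnr. Near-identical copies make some rows uncertain, because reads that aligned to more than 1 place were not counted. Of the 150-base windows of the longest transcript, 89.6% in Sprr2a1 and 89.0% in Sprr2a2 also occurred in another gene, and both rows were at 0 in all 8 libraries. Lce3f, Lce3e and Lce3c shared 36.8%, 29.5% and 15.1% of their windows with other Lce3 genes, S100a4 43.8% with Gm42674, and S100a11 24.9% with Gm12854 and Gm7665. Windows were matched exactly, so copies that differ by a few bases are not in these shares.

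The stretches before the start sites of 5 members are shown because these genes carry the results below. Sprr1b, Ivl, Sprr2h and S100a9 had the 4 largest fold changes among the members called at E16.5, and Lor, a precursor that did not pass there, is set beside them. Each is the last 150 bases before the RefSeq start in GRCm38.p6, the same assembly as mm10, read 5′ to 3′ on the strand of the gene. Capitals mark matches on either strand to TATAAA (the TATA box), TGANTCA (bound by AP-1 factors such as Fos and Jun), GGGCGG (bound by SP factors) and CACACCC (bound by KLF factors).
Ivl (chr3:92573736-92573885, minus strand): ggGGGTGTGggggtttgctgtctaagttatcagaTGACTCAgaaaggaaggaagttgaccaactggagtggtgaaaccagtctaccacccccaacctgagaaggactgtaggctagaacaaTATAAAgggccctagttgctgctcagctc
Sprr1b (chr3:92438780-92438929, minus strand): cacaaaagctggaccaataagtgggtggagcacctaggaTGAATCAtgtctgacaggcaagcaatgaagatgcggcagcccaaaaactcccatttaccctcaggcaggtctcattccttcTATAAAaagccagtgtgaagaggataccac
Sprr2h (chr3:92385535-92385684, plus strand): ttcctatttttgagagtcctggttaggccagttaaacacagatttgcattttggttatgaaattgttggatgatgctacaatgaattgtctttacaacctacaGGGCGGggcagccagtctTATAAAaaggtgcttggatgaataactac
S100a9 (chr3:90695722-90695871, minus strand): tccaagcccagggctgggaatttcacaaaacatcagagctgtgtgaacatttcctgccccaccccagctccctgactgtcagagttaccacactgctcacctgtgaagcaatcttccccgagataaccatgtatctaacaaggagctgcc
Lor (chr3:92083143-92083292, minus strand): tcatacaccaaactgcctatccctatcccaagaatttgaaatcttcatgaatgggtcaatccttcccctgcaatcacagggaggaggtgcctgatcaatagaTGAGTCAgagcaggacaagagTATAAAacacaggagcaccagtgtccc
The TATA box stood 29 bases before the start in Ivl, 30 in Sprr1b, 29 in Sprr2h and 27 in Lor, and the S100a9 stretch held none of the motifs. The AP-1 match lay 116 bases before the start in Ivl, 111 in Sprr1b and 48 in Lor. Sprr2h had its AP-1 match 198 bases before the start, outside the printed stretch. Also outside it, S100a9 had GGGCGG 223 bases and AACCNGTT (a GRHL motif) 173 bases before the start.

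RefSeq promoter entries were found for 51 of the 59 members, and the 250 bases before the start were searched. TATAAA occurred in 22 of 51 members (43.1%) against 14.3% of the 27025 genes with an entry, and TGANTCA in 17 of 51 (33.3%) against 7.82%. The AP-1 letters were found in 9 of 13 Sprr, 6 of 8 single, 2 of 11 S100a and 0 of 19 Lce members. Of 9 Sprr2 genes with an entry, Sprr2b, Sprr2d, Sprr2e, Sprr2f, Sprr2h, Sprr2i and Sprr2k had a TATAAA 29 bases before the start and an AP-1 match between 193 and 198 bases before it, which describes how alike these copies are, and Sprr2a1 and Sprr2a2 had neither. GGGCGG was found in 5 of 51 members (9.80%) against 35.4% of genes, CACACCC in 1 (1.96%) against 7.90%, and AACCNGTT, a GRHL motif, in 3 (5.88%) against 2.0%. The searched motifs are different letters and were counted separately, so 1 stretch can count for several. Of the members called higher in MOF cKO below, 5 of 8 with an entry held TGANTCA, and of those tested but not called, 4 of 12 did. TATAAA was held by 4 of the 8 and by 7 of the 12. Among the 8, Sprr2h, which held both motifs, entered its test only because it was high in MOF cKO. Whether a motif goes with the calls was not tested. A match describes the sequence and is no evidence of binding.

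Counts on genes ran from 22484018 to 27561688 in the E16.5 libraries and from 9108709 to 19774643 in the P0.5 libraries, so that 1 count stood for 0.0326 to 0.0502 CPM at E16.5 and 0.0484 to 0.115 CPM at P0.5. CPM here are counts over the library size after TMM scaling within each experiment, which corrects for differences in library composition. Each experiment was fitted alone with edgeR's quasi-likelihood test, and calls required a fold change above 1.5 together with an adjusted p no higher than 0.01. The labels do not say whether the 2 libraries of a group came from separate animals, so the p-values measure the spread between these libraries. The targeted gene of the first experiment, Kat8, had 443 and 408 counts in control against 248 and 329 in MOF cKO (log2 fold change -0.14, edgeR adjusted p = 0.554). Kansl1 had 355 and 745 counts in the controls and 649 and 387 in Kansl1 cKO (log2 fold change -0.52, edgeR adjusted p = 0.242). After scaling, both cKO libraries lay below both controls for each gene, and counts of a whole gene do not show the loss of single exons. Markers of basal keratinocytes were present in every library, with summed levels of 31600 to 38800 CPM at E16.5 and 17800 to 19800 CPM at P0.5 over 8 genes.

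Members of the complex took 0.153% of the counts on genes in both E16.5 control libraries, 0.229% and 0.222% in the MOF cKO libraries, 2.87% and 2.13% in P0.5 control and 1.49% and 3.05% in Kansl1 cKO. At E16.5 nearly all of this was S100a RNA. Without the S100a genes the share was 0.0047% and 0.00492% in control against 0.0153% and 0.0127% in MOF cKO. The 15 Sprr genes went from 0.00171% and 0.00166% of counts in control to 0.00968% and 0.00781% in MOF cKO, while the 20 Lce genes held 0.000196% and 0.000549% in control against 0.000133% and 0.000216% in MOF cKO, with overlapping libraries. The single genes held 0.0028% and 0.00271% in control against 0.00549% and 0.00471% in MOF cKO.

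**Figure D1:**
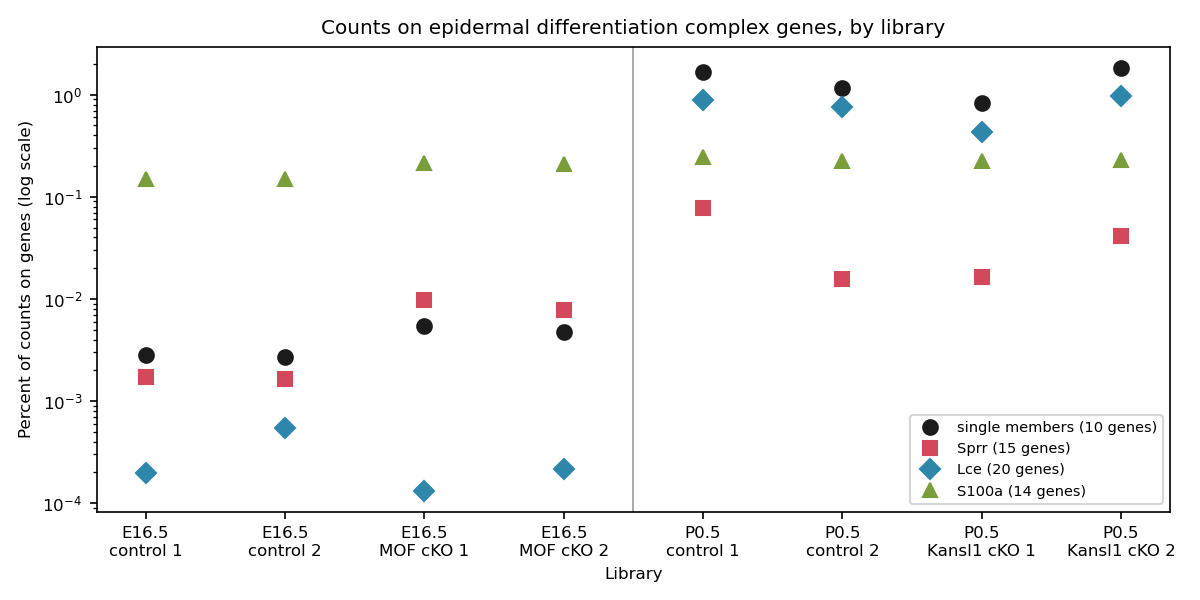
Share of the counts on genes (percent, log scale) taken by the single, Sprr, Lce and S100a members in each of the 8 libraries. The S100a share stays between 0.148% and 0.248%, the Lce share runs from 0.000133% at E16.5 to 0.969% at P0.5, and the Sprr share is higher in both MOF cKO libraries than in both E16.5 controls.

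In MOF cKO at E16.5, Ivl and 3 Sprr genes rose from low or moderate levels, 4 S100a genes and Tchh rose, and the Lce family stayed near the detection limit. Of the 59 members, 25 passed the filter on low counts, 9 were called higher and 1 lower. Over all 13956 genes tested, 10.0% were called higher and 9.59% lower. The members called higher were Sprr1b, Ivl, Sprr2h, S100a9, Tchh, S100a6, S100a11, Sprr1a and S100a10, and S100a13 was called lower. The median log2 fold change of the 25 tested members was 0.81, against -0.02 over all tested genes. Of these 25, 17 passed the filter in both groups, 5 through the MOF cKO libraries alone and 2 through the control libraries alone, and 1 through neither group as a whole, so neither the median nor the count describes all 59 members. The 5 were Sprr2h, Sprr2d, Sprr4, Lce6a and S100a8, which entered because they were high in MOF cKO. Their tests were not free to go either way, and they add to the counts of higher members. The 2 that entered through control were Hrnr and Lce1a1. Both MOF cKO libraries lay above both controls in 19 of the 25 and below them in 3, where 34.9% and 37.7% of all tested genes did so. Without TMM, on library size alone, S100a10, Sprr1a and Sprr2h were no longer called, and 1 fit over all 8 libraries lost Sprr1a, Sprr2h and Tchh. In bulk RNA, more or fewer cells of a type cannot be told apart from more or less RNA per cell.

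**Figure D2:**
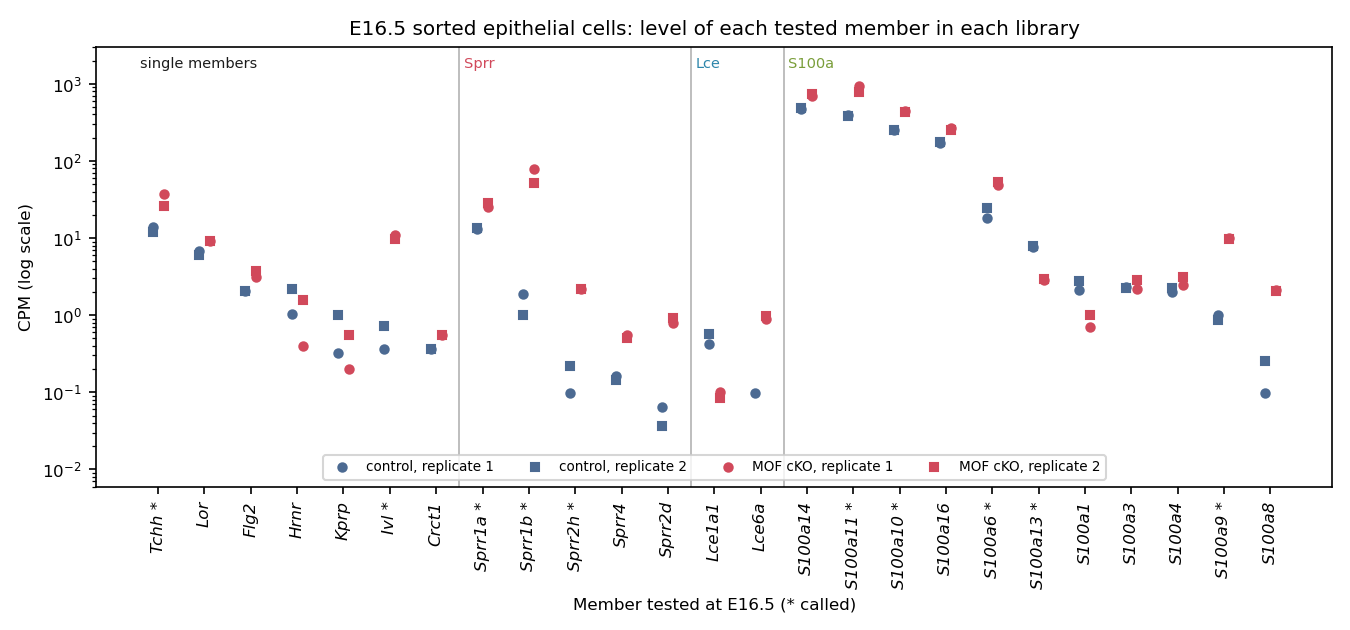
Level of each of the 25 members tested at E16.5, in CPM on a log scale, with 1 point per library (blue control, red MOF cKO), grouped as single, Sprr, Lce and S100a members and ordered by their control mean; an asterisk marks a call and libraries at 0 are not drawn (Lce6a in control replicate 2). Ivl, Sprr1b, Sprr2h and S100a9 stand apart by genotype, while Kprp, Hrnr and S100a3 overlap.

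Among the envelope precursors, Ivl passed the test and Lor did not. Ivl was at 0.359 and 0.722 CPM in the control libraries (11 and 20 counts) and at 10.8 and 9.82 CPM in the MOF cKO libraries (216 and 232 counts). Its means were 0.540 ± 0.257 CPM in control against 10.3 ± 0.720 CPM in MOF cKO (SD, n = 2). This is 4.26 on the log2 scale (standard error 0.423, edgeR adjusted p = 0.000681), a 19.1-fold higher level. Lor was at 6.72 and 6.07 CPM in control against 9.04 and 9.23 CPM in MOF cKO. Its libraries did not overlap, but its log2 fold change of 0.51 (standard error 0.242) did not pass (edgeR adjusted p = 0.131). In controls, per kilobase of transcript, Lor had 3.59 CPM and Ivl 0.281 CPM, and in MOF cKO Lor had 5.13 and Ivl 5.38. Whether the responses of Ivl and Lor differed was not tested. Crct1, which encodes a short cysteine-rich protein of the cornified layer, was at 0.359 and 0.361 CPM in control against 0.552 and 0.551 CPM in MOF cKO, 0.61 on the log2 scale (edgeR adjusted p = 0.571), and this rests on 10 to 13 counts per library. Kprp, a proline-rich keratinocyte protein, was at 0.326 and 1.01 CPM in control against 0.201 and 0.551 CPM in MOF cKO, and the groups overlapped (edgeR adjusted p = 0.532).

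The Sprr genes held the largest change of the complex. Sprr1b had 57 and 28 counts in control against 1580 and 1230 in MOF cKO, or 1.86 and 1.01 CPM against 79.3 and 52.1 CPM. The means were 1.43 ± 0.60 and 65.7 ± 19.3 CPM (SD, n = 2), 45.2-fold higher in MOF cKO (log2 fold change 5.50, standard error 0.329, edgeR adjusted p = 0.000175). Its neighbour Sprr1a, which encodes the other protein of the Sprr1 class, was already at 13.0 and 13.4 CPM in control and reached 25 and 28.4 CPM in MOF cKO (log2 fold change 1.02, standard error 0.160, edgeR adjusted p = 0.00299). Per kilobase of transcript, Sprr1a was above Sprr1b in control (16.4 against 1.73 CPM) and below it in MOF cKO (33.1 against 79.2 CPM). Sprr2h was at 0.0978 and 0.217 CPM in control against 2.21 and 2.16 CPM in MOF cKO, 3 and 6 counts against 44 and 51. It entered the test through the MOF cKO libraries alone, where it was high (log2 fold change 3.77, standard error 0.774, edgeR adjusted p = 0.00843). The call of Sprr2h was lost when any 1 of the 4 libraries was left out, with edgeR adjusted p between 0.0121 and 0.0396. Sprr2d had 2 and 1 counts in control against 16 and 22 in MOF cKO, a ratio of 17.0 with a 95% counting interval of 5.39 to 86.0, and did not pass (edgeR adjusted p = 0.0167). Sprr4, whose coding sequence is among the shortest of the cluster, was at 0.163 and 0.144 CPM in control against 0.552 and 0.508 CPM in MOF cKO (edgeR adjusted p = 0.154). Sprr2d and Sprr4, like Sprr2h, entered the test through the MOF cKO libraries alone.

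The other 10 Sprr members were below the filter. Sprr2b had 0 counts in both controls and 22 in MOF cKO, 18 and 4 by library, so it was at least 9.83-fold higher against a floor of 3 counts over the group. By the same floor Sprr2k, with 9 counts in 1 MOF cKO library, was at least 4.02-fold higher and Sprr2e, with 6 counts in the same library, at least 2.68-fold higher. Both MOF cKO libraries lay above both controls in 8 of the 15 Sprr members, tested or not, and below them in 0. Of the 8, 5 were tested, and 3 of those passed the filter through the MOF cKO libraries alone. The shares over all genes, 34.9% above and 37.7% below, cover tested genes only, so they are not a like comparison. Sprr2a1, Sprr2a2 and Sprr2j-ps were at 0 in all 4 libraries. Intervals and floors here cover counting error only.

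The Lce family showed no such rise. Of 20 members 2 passed the filter and 0 were called by edgeR, with 1 higher and 1 lower at an unadjusted p under 0.05 and 0 called by DESeq2. No Lce member had more than 29 counts in an E16.5 library, 14 stayed under 10 in every one, and Lce1k, Lce3a, Lce3b and Lce3e were at 0 in all 4. Lce6a had 3 and 0 counts in control against 18 and 23 in MOF cKO, a ratio of 18.3 with a 95% counting interval of 5.84 to 92.5 (edgeR adjusted p = 0.0289). It entered the test through the MOF cKO libraries alone, where it was high, so the test was not free to go either way. Lce6a lies next to Ivl on the chromosome, at 92620081 to 92621660. Some Lce1 genes had lower values in MOF cKO. Lce1a1 was at 0.424 and 0.578 CPM in control against 0.10 and 0.0847 CPM in MOF cKO (log2 fold change -2.38, standard error 0.973, edgeR adjusted p = 0.0910). It entered the test through the control libraries alone, where it was high. Lce1b had 1 and 26 counts in the controls and 0 in both MOF cKO libraries, at least 6.71-fold lower against the floor of 3 counts, and control replicate 2 supplied 26 of the 27 counts. Lce1m was at 0.294 and 1.05 CPM in control against 0.10 and 0.296 CPM in MOF cKO. Both MOF cKO libraries lay below both controls in 5 of the 20 Lce members and above them in 2, tested or not. Among all tested genes 37.7% lay below and 34.9% above, which is not a like comparison, because most Lce members were not tested. Over the 20 genes the summed counts were 54 and 137 in control against 30 and 56 in MOF cKO, and after scaling the groups overlapped, with 1.76 and 4.95 CPM in control against 1.51 and 2.37 CPM in MOF cKO.

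Of the 6 fused S100 genes, Tchh was the member that changed. Tchh encodes trichohyalin, which is known from the inner root sheath of hair follicles. It was at 14.1 and 11.9 CPM in control against 37.6 and 26.0 CPM in MOF cKO, or 13.0 ± 1.49 and 31.8 ± 8.27 CPM (SD, n = 2), and its log2 fold change was 1.29 (standard error 0.214, edgeR adjusted p = 0.00372). Flg2, a filaggrin-like protein, was at 2.05 and 2.06 CPM in control against 3.11 and 3.77 CPM in MOF cKO (log2 fold change 0.74, edgeR adjusted p = 0.201). Hrnr, which encodes hornerin, was at 1.04 and 2.20 CPM in control against 0.402 and 1.57 CPM in MOF cKO, with overlapping libraries (edgeR adjusted p = 0.517). Rptn had 6 and 2 counts in control against 0 and 4 in MOF cKO, Crnn between 0 and 3 counts in each library, and Tchhl1 0 in all 4. These 3 genes, for repetin, cornulin and trichohyalin-like 1, were not tested.

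The highest levels in control cells were those of S100a genes, but not of the whole family. Sprr1a (16.4 CPM per kilobase) stood above S100a13 (10.8 CPM per kilobase), and S100a2 was at 0. Per kilobase of transcript, S100a11 (755 CPM), S100a10 (368 CPM), S100a14 (287 CPM) and S100a16 (154 CPM) stood highest in control, and the same order of 4 genes held in MOF cKO, at 1700, 647, 424 and 229 CPM. Each of the 4 stood above the next in both libraries of both groups. S100a11, which encodes a protein that crosslinks into the envelope, was at 393 and 378 CPM in control against 939 and 794 CPM in MOF cKO (log2 fold change 1.17, standard error 0.116, edgeR adjusted p = 0.000681). S100a10, the partner of annexin A2, was at 255 and 250 CPM in control against 450 and 436 CPM in MOF cKO (log2 fold change 0.81, standard error 0.0981, edgeR adjusted p = 0.00114). S100a6 was at 18.2 and 24.2 CPM against 48.2 and 53.3 CPM (log2 fold change 1.26, standard error 0.170, edgeR adjusted p = 0.00166). S100a14 and S100a16 moved by 0.56 and 0.57 on the log2 scale with edgeR adjusted p of 0.00443 and 0.00430, under the fold threshold, and no library of the MOF cKO overlapped the controls.

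At the low-coordinate end, S100a8 and S100a9 lie next to each other and had similar fold changes. S100a9 was at 1.01 and 0.866 CPM in control against 9.94 and 9.61 CPM in MOF cKO, or 0.939 ± 0.102 and 9.78 ± 0.231 CPM (SD, n = 2), 10.4-fold higher (log2 fold change 3.37, standard error 0.334, edgeR adjusted p = 0.000678). S100a8 had 3 and 7 counts in control against 42 and 49 in MOF cKO (log2 fold change 3.55, standard error 0.789) and did not pass with edgeR (adjusted p = 0.0113), while DESeq2 called it (adjusted p = 0.000996). Other edgeR fits called it as well, that on every gene with at least 1 count (adjusted p = 0.00128) and that with the replicate block (adjusted p = 0.00218). In the main and the block fit S100a8 passed the filter through the MOF cKO libraries alone, where it was high. Those tests were not free to go either way. Since both genes are also expressed in myeloid cells, markers of those cells are given beside them. Of 14 macrophage markers 9 were called higher and 0 lower, where 10.0% and 9.59% of all tested genes were. Their summed levels were 22.2 and 47.3 CPM in control against 122 and 152 CPM in MOF cKO, although the cells had been sorted for GFP. Lyz2 had 3 and 8 counts in control against 423 and 538 in MOF cKO, and C1qa 2 and 5 against 171 and 181. Of 10 neutrophil markers 3 were tested and 0 called with edgeR, with summed levels of 1.92 and 1.66 CPM in control against 4.72 and 7.58 CPM in MOF cKO. Between 5 and 7 of these 10 were at 0 in each library, and 2, with the neutrophil granule gene Mpo among them, were at 0 in all 4. The 3 tested had higher values in MOF cKO. Csf3r had 0 counts in both controls against 9 and 37, Cxcr2 2 and 0 against 18 and 16, and Itgam 55 and 34 against 60 and 124. Among the macrophage markers, Tyrobp was at 0 in control replicate 2 and none of the 14 was at 0 in the other 3 libraries. The part of these cells in the S100a8 and S100a9 values was not tested.

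S100a13 and S100a1 were lower in MOF cKO in their values. They start back to back on opposite strands, S100a1 ending at 90514392 and S100a13 beginning at 90514435. S100a13 was at 7.57 and 7.83 CPM in control against 2.86 and 2.92 CPM in MOF cKO, and fell by 1.41 on the log2 scale (standard error 0.298, edgeR adjusted p = 0.00942). The call was lost when any 1 library was left out, with edgeR adjusted p from 0.0119 to 0.0402, and with RLE size factors in place of TMM. S100a1 was at 2.09 and 2.78 CPM in control against 0.703 and 1.02 CPM in MOF cKO (log2 fold change -1.49, standard error 0.562, edgeR adjusted p = 0.0725). S100a3 and S100a4 had log2 fold changes of 0.15 and 0.39 (edgeR adjusted p = 0.817 and 0.520). S100a2, S100a5 and S100a7a, the 3 untested members of the family, were between 0 and 0.402 CPM in every library.

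**Figure D3:**
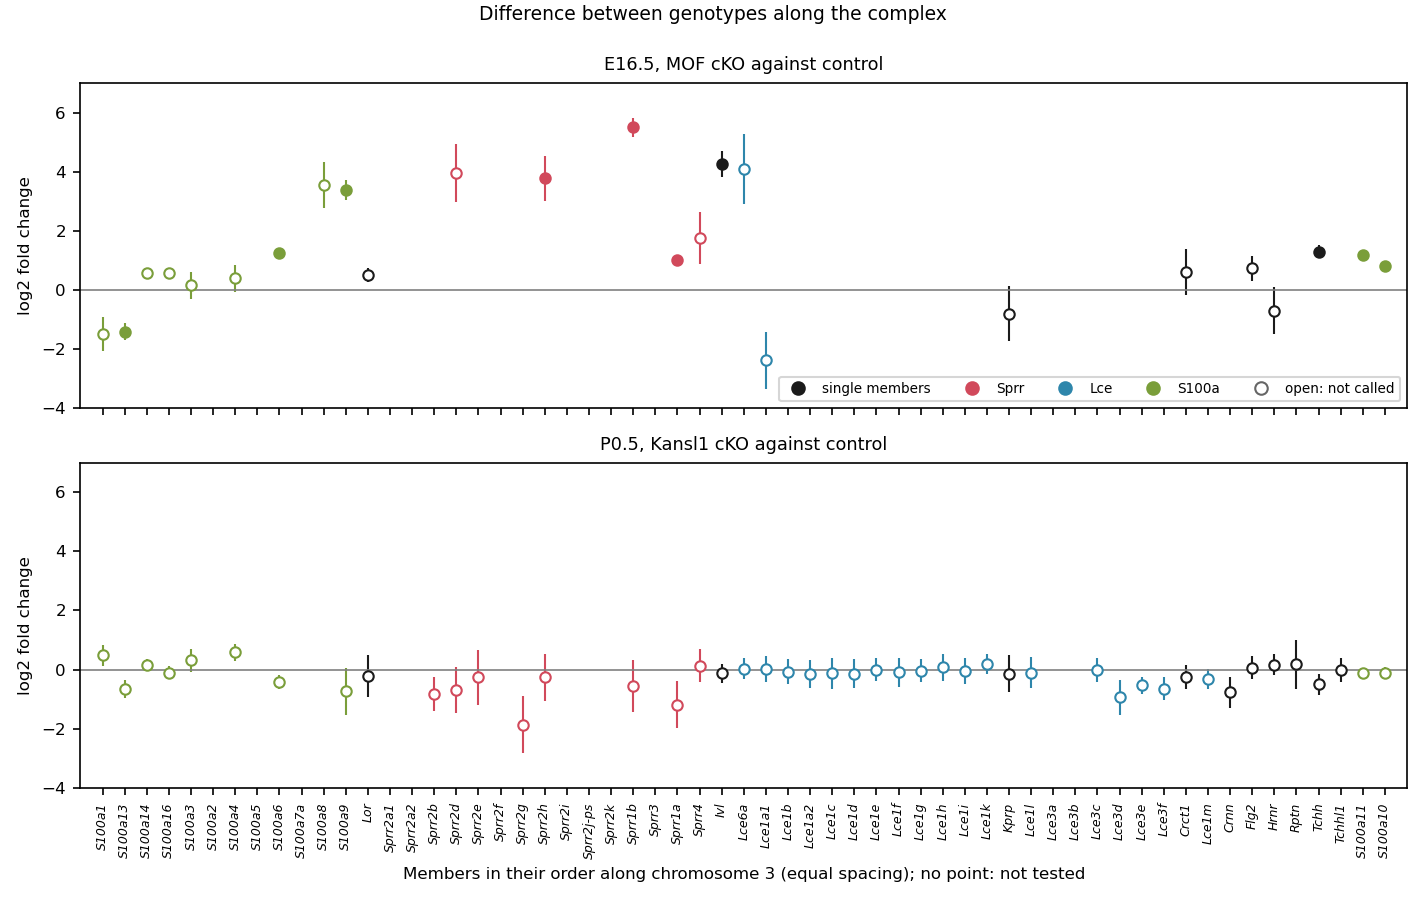
Log2 fold change with its standard error for each tested member (filled if called), in the order of the genes along chromosome 3 with equal spacing; upper panel MOF cKO against control at E16.5, lower panel Kansl1 cKO against control at P0.5, colours by family. In the upper panel Sprr1b at 5.50 and Ivl at 4.26 stand highest and S100a13 at -1.41 is the filled point below 0; in the lower panel every point is open.

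Other genes of the envelope were read from a list of 29 crosslinking and processing genes. In MOF cKO 13 of these were called higher and 0 lower, with a median log2 fold change of 0.76. Over all genes tested, 10.0% were called higher and 9.59% lower, with a median of -0.02. Tgm1, the transglutaminase that anchors envelope precursors at the membrane, had 178 and 102 counts in control against 1386 and 1513 in MOF cKO (log2 fold change 3.81, standard error 0.223, edgeR adjusted p = 0.000175). Aloxe3, a lipoxygenase of the barrier lipids, and Tgm3, a second transglutaminase, had log2 fold changes of 2.85 and 2.67 (edgeR adjusted p = 0.00491 and 0.00148). Of 43 genes that encode regulators of epidermal differentiation, 11 were called higher and 2 lower. Ehf, an ETS factor, rose by 2.20 and Notch3 by 1.72 on the log2 scale (edgeR adjusted p = 0.00136 and 0.000253), and Prdm1 fell by 1.47 (edgeR adjusted p = 0.00827). Of the 9 genes that lie among the members without being one, 5 were tested and 1 was called. This was Pglyrp3, a peptidoglycan recognition protein gene, with 4 and 13 counts in control against 219 and 166 in MOF cKO (log2 fold change 4.91, standard error 0.594, edgeR adjusted p = 0.00114).

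Of the layer markers outside the complex, most spinous and some granular genes were called higher in MOF cKO. Over all genes tested, 10.0% were called higher and 9.59% lower. Spinous markers were called higher in 5 of 6 tested genes, and their summed level was 4230 and 3420 CPM in control against 9240 and 10100 CPM in MOF cKO. Granular markers were called higher in 4 of 8, with sums of 157 and 174 CPM in control against 298 and 279 CPM in MOF cKO. Apart from Krt1 and Krt10, all called spinous and granular markers were also on the list of processing genes above. Those calls are the same calls and were not counted anew. Krt6a, Krt6b and Krt16, keratins of wounded and stressed epidermis, were called higher, 3 of the 4 genes on that list. Krt6a had 465 and 468 counts in control against 28796 and 35205 in MOF cKO. Of 8 basal markers 1 (Krt15) was called lower, of 7 periderm markers 1 (Krt8) lower and of 6 hair follicle markers 3 (Lhx2, Shh and Edar) lower. Of 5 endothelial markers 1 (Pecam1) was called higher, and of 7 fibroblast, 6 melanocyte, 4 tested muscle and 1 tested Langerhans and T cell markers 0 were called by edgeR. How far the mix of cells in the sort enters the values of the members was not tested.

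In Kansl1 cKO at P0.5, 46 of the 59 members passed the filter, 0 were called lower and 0 higher, and over all 13031 genes tested 0.0% were called in either direction with edgeR. At an unadjusted p under 0.05, 0 of the 46 members differed, where 1077 of all genes were lower and 968 higher, and DESeq2 called 0 members and 55 genes lower and 35 higher in all. The smallest adjusted p among members was 0.363 (edgeR), and the median log2 fold change was -0.12 against 0.012 over all tested genes. Both Kansl1 cKO libraries lay below both controls in 3 tested members and above them in 2, all S100a genes, where 22.7% and 26.0% of all tested genes did so. The number of libraries limits what could be seen, and a p that misses the threshold does not show that the levels were equal.

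All tested members outside the S100a family overlapped between the P0.5 groups. Lor was at 4430 and 2700 CPM in the control libraries and at 857 and 5290 CPM in the Kansl1 cKO libraries, so that the lowest and the highest value both came from Kansl1 cKO. Its log2 fold change was -0.21 with a standard error of 0.713. Ivl was at 842 and 494 CPM in control and 470 and 764 CPM in Kansl1 cKO (log2 fold change -0.12, standard error 0.322). Crct1 was at 2310 and 1420 CPM against 970 and 2160 CPM, and Kprp at 451 and 259 CPM against 114 and 530 CPM. Lce1m, the Lce member with the highest level per kilobase, was at 2740 and 2460 CPM in control and 1340 and 2820 CPM in Kansl1 cKO. Lce1a1 was at 1020 and 712 CPM against 456 and 1290 CPM, and Lce1b at 735 and 521 CPM against 334 and 864 CPM. In 14 of 18 tested Lce members Kansl1 cKO replicate 1 was the lowest library and in 14 of 18 Kansl1 cKO replicate 2 was the highest. The ratio of replicate 2 to replicate 1 of Kansl1 cKO had a median of 2.52 over the Lce members and 1.08 over the 10 tested S100a members.

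The Sprr members differed most between the 2 control libraries. Sprr1b was at 394 and 42.2 CPM in control and 93.7 and 204 CPM in Kansl1 cKO, and Sprr1a at 186 and 29.8 CPM against 25.9 and 68.9 CPM. Control replicate 1 was the highest library for 7 of the 8 tested Sprr members, and its ratio to control replicate 2 had a median of 5.0 over them. Sprr2h was at 88.1 and 21.9 CPM in control and 15.8 and 75.6 CPM in Kansl1 cKO. Muscle markers stood apart in the same control library, with a summed level of 196 CPM against 4.66 to 8.53 CPM in the other 3 libraries. The summed wound keratins were highest there too, at 2220 CPM against 1080 CPM in control replicate 2 and 1580 and 1460 CPM in Kansl1 cKO. Of this list, Krt6a, Krt6b and Krt16 were highest in control replicate 1, while Krt17 was lowest there after scaling. The part of these markers in the Sprr values was not tested.

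**Figure D4:**
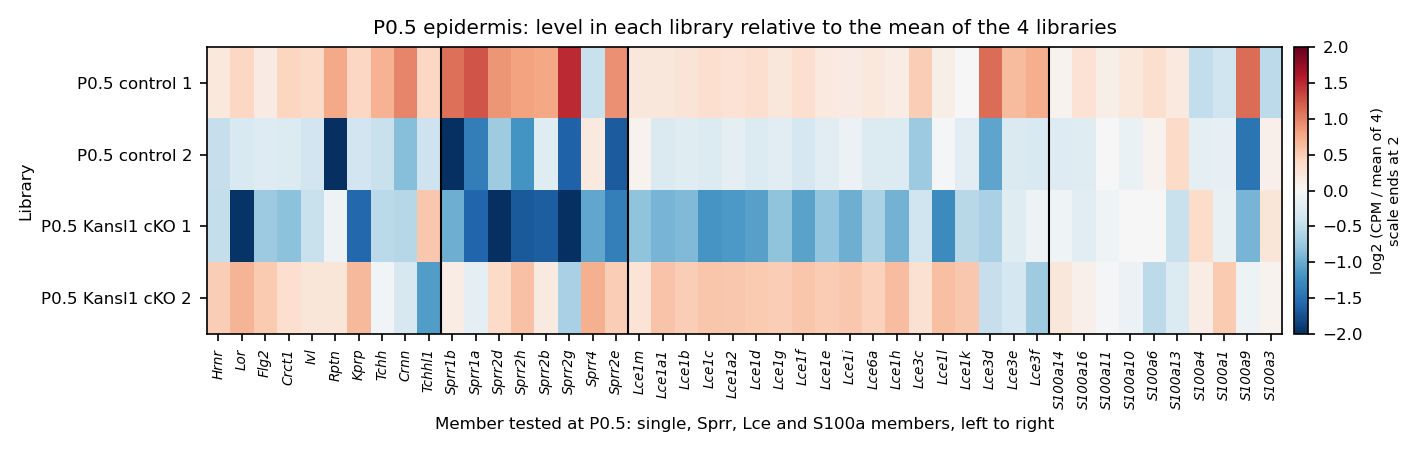
Level of each of the 46 members tested at P0.5 in each of the 4 libraries, as log2 of CPM over the mean of the 4 libraries (red above, blue below; colours end at 2 and -2); black lines part the single, Sprr, Lce and S100a members. Kansl1 cKO replicate 1 is the lowest library for 29 of the 46 members and Kansl1 cKO replicate 2 the highest for 14 of 18 Lce genes, while control replicate 1 is the highest for 7 of 8 Sprr genes.

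The fused S100 genes differed in which library stood apart. Hrnr was at 5560 and 3520 CPM in control and 3450 and 6750 CPM in Kansl1 cKO, and Flg2 at 2740 and 2060 CPM against 1490 and 3540 CPM. Rptn was at 795 and 84.8 CPM in control and 437 and 556 CPM in Kansl1 cKO, with control replicate 2 the lowest. Tchh was at 131 and 59.8 CPM against 56.0 and 78.2 CPM, Crnn at 57.5 and 16.1 CPM against 19.5 and 23.2 CPM, both highest in control replicate 1, and Tchhl1 had 6 to 31 counts in each library. Among the S100a members, S100a11 was at 498 and 465 CPM in control and 434 and 448 CPM in Kansl1 cKO (log2 fold change -0.13, standard error 0.161, edgeR adjusted p = 0.740). S100a10 was at 397 and 310 CPM against 345 and 314 CPM, S100a14 at 955 and 765 CPM against 861 and 1060 CPM and S100a16 at 692 and 478 CPM against 483 and 608 CPM. S100a13 was at 4.81 and 5.50 CPM in control and 3.10 and 3.48 CPM in Kansl1 cKO, which did not pass (log2 fold change -0.66, standard error 0.312, edgeR adjusted p = 0.363). S100a6 was at 22.1 and 18.4 CPM against 17.6 and 12.3 CPM. S100a9 was at 4.24 and 0.711 CPM in control and 1.02 and 1.82 CPM in Kansl1 cKO, and S100a8 between 3 and 14 counts in each library.

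Layer markers outside the complex also varied within the groups. The summed granular markers were 16000 and 9420 CPM in control and 6360 and 14000 CPM in Kansl1 cKO, and the spinous markers 73500 and 41500 CPM against 44400 and 69700 CPM. Both sums were highest in control replicate 1, the granular sum was lowest in Kansl1 cKO replicate 1 and the spinous sum in control replicate 2. All lists of markers, regulators, processing genes and neighbours had 0 genes called by edgeR in this comparison, as among all genes tested. Some marker sums did not overlap between groups. Fibroblast markers were at 1760 and 1100 CPM in control against 927 and 741 CPM in Kansl1 cKO. Melanocyte markers were at 438 and 487 CPM against 944 and 1050 CPM. Macrophage markers were at 249 and 288 CPM against 382 and 410 CPM. Dcn, Cd68 and Fcer1g went against the sum of their list. Basal, muscle and endothelial sums were lower too, hair follicle and Langerhans and T cell sums higher. The part of these lists in the values of the members was not tested. Leaving out Kansl1 cKO replicate 2, which leaves that group with 1 library whose spread is assumed to be that of the others, gave 11 members called lower: Kprp, Lce1a2, Lce1c, Lce1l, Lor, Sprr1a, Sprr1b, Sprr2b, Sprr2d, Sprr2g and Sprr2h, where 1.45% of all tested genes were called lower. Leaving out any of the other 3 libraries gave 0 with edgeR.

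The members' levels were much higher in P0.5 control epidermis than in the sorted E16.5 control cells, and stage cannot be told apart here from the isolation of the cells, the layers it keeps and the sequencer. Of 46 members tested, 41 were called higher at P0.5 and 0 lower, against 22.2% and 17.6% of all 13859 genes tested. All 10 single, 8 tested Sprr and 18 tested Lce members were higher, and 5 of 10 S100a members were. Of the 46, 30 passed the filter on low counts only through the P0.5 libraries, all 18 Lce members among them, and so had to be higher there. Of the 16 that passed in both groups 11 were called higher, 4 single, 2 Sprr and 5 S100a genes. Lor, which passed in both groups, went from 206 and 168 counts to 38642 and 41712 (log2 difference 9.46, standard error 0.349, edgeR adjusted p = 9.12e-07). Ivl, with 11 and 20 counts in the E16.5 controls, passed through the P0.5 libraries alone. Its log2 difference of 10.61 (standard error 0.446) is therefore given without a p-value. Lce1l, at 0 in the E16.5 controls, was at least 2370-fold higher, and Lce3e at least 1020-fold. The differences were smaller for Sprr1a, with a log2 difference of 3.36, and for Tchh, with 3.20 (edgeR adjusted p = 0.00419 and 0.000184). S100a16 differed by 2.09, S100a14 by 1.17 and S100a10 by 0.82 on the log2 scale, all called, while S100a6, S100a13 and S100a9 did not pass (edgeR adjusted p = 0.330, 0.50 and 0.104). The order of levels per kilobase in P0.5 control was led by Lce1m (2980 CPM), Crct1 (2600 CPM), Lor (2000 CPM) and Lce1a1 (1230 CPM), none of which was above 4 CPM per kilobase in E16.5 control, and S100a11 came sixth at 942 CPM. In that order Lor (2490 and 1520 CPM per kilobase in its 2 libraries) overlapped Crct1 (3220 and 1980) and stood above Lce1a1 (1450 and 1010), while Crct1 and Lce1m overlapped, as did Lce1a1 and Lce1b.

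The test of the difference between the MOF and the Kansl1 effect, an interaction over all 8 libraries, called 2 of 47 tested members, Ivl and S100a11, with the MOF effect above the Kansl1 effect, and 0 below. Over 14565 genes tested, 1.76% were called above and 1.17% below. For Ivl the log2 difference between the effects was 4.34 (standard error 0.516, edgeR adjusted p = 0.00283) and for S100a11 it was 1.26 (standard error 0.182, edgeR adjusted p = 0.00509). Sprr1b had a difference of 6.01 with a standard error of 1.25 and did not pass (edgeR adjusted p = 0.0170), nor did S100a6 at 1.66 (adjusted p = 0.0127 from edgeR). DESeq2 called 9 members above and a fit on every gene with at least 1 count called 13. Stage, isolation and sequencer differ between the 2 experiments and cannot be told apart from the gene deleted.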

How the data were processed

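RNA from 8 libraries was sequenced as poly(A)-selected, directional 150 nt read pairs, on a HiSeq for E16.5 and a NovaSeq for P0.5. The authors aligned the reads to mm10 and deposited counts per gene made with HTSeq-count. The aligner is HISAT2 in the methods of the study and TopHat2 in the submitters' processing notes. The annotation and the strand setting are not given in the sources used here, so reads of overlapping genes on opposite strands may not have been told apart. Reads not assigned to a gene made up 21.1% to 25.99% of the reads in the tables, with ambiguous reads and reads aligned to several places included. They entered neither the library sizes nor any test. Counts of paired libraries of a group differed by more than sampling noise (chi-square per degree of freedom 23.5 to 44.1), so no library was counted as a copy of another.

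Each experiment was fitted alone with edgeR 4.0.16 in R 4.3.3 (filterByExpr with a minimum count of 10, TMM factors, quasi-likelihood F-test, Benjamini-Hochberg adjustment over all genes tested). Calls needed an adjusted p of at most 0.01 and a fold change over 1.5. Standard errors were taken as the log2 fold change over the square root of F. P0.5 and E16.5 controls were compared in a fit of those 4 libraries, and the difference between the MOF and Kansl1 effects in a fit of all 8. DESeq2 1.42.0, other size factors, filters and thresholds, a replicate block and leaving out each library were alternatives. The scripts were tested on simulated counts with 200 changed genes. Exact windows of 150 bases and promoter motifs were searched with Python 3.11.15 and pandas 2.3.3, against GENCODE M21 transcripts and RefSeq promoters of GRCm38.p6, intervals came from SciPy 1.17.1 and plots from matplotlib 3.10.9.

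Groups were taken from the labels. All members may be named. The single genes, the family members called and the 3 members of each family with the highest mean CPM are given in every library, and from the lists of processing genes, regulators, neighbours and markers of basal, spinous, granular, periderm, wound, hair follicle, macrophage, neutrophil, Langerhans and T, fibroblast, endothelial, melanocyte and muscle cells up to 3 called genes are named. S100a8, S100a1, Sprr2d and Lce6a, members with low counts, and Mpo, Csf3r, Cxcr2 and Itgam were named after their values were seen. The same holds for Krt10, Krt17, Dcn, Cd68 and Fcer1g. The members and lists were chosen with earlier results of these data known. Symbols matched GENCODE M21 for 21735 of 23432 rows (92.76%).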

Additional observations from a re-analysis of the deposited data

Results flagged for a closer look

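For 2 members the effect of the MOF deletion at E16.5 differed from that of the Kansl1 deletion at P0.5 by a test of the difference itself, the edgeR interaction over 8 libraries. Ivl had a log2 difference between the effects of 4.34, from log2 fold changes of 4.26 in MOF cKO and -0.12 in Kansl1 cKO. S100a11 had a log2 difference of 1.26, from 1.17 and -0.13. Stage, isolation and sequencer differ between the experiments and cannot be told apart from the deleted gene.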

How the results depend on the processing

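The alternatives changed counts of members as follows. In MOF cKO, 4 members were called higher and 0 lower when tested against a fold of 1.5 with glmTreat (Ivl, S100a11, S100a9 and Sprr1b higher), 0 lower with RLE factors, and 0 to 0 lower with any 1 library left out. The median log2 fold change of the tested members was 0.51 with library size alone, which moved the median of all genes from -0.02 to -0.32, 0.58 on every gene with at least 1 count, and 0.61 to 0.92 with 1 library left out. In Kansl1 cKO, 0 to 11 members were called lower with 1 library left out, and the median ran from -0.90 to 0.29. The interaction called 9 members above with DESeq2 and 13 on every gene with at least 1 count. Leaving out a library leaves 1 in its group, assumed to vary like the others. Where no construction explains a change, the cause was not tested.

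With 1 library left out, Kprp ran from -1.71 to 0.21 in MOF cKO on the log2 scale. In Kansl1 cKO the log2 fold change of Crct1 ran from -0.94 to 0.18, Crnn from -1.47 to 0.40, Flg2 from -0.68 to 0.52, Hrnr from -0.39 to 0.54, Ivl from -0.51 to 0.32, Kprp from -1.64 to 0.55, Lce1a1 from -0.92 to 0.55, Lce1b from -0.91 to 0.43, Lce1m from -0.95 to 0.083, Lor from -2.05 to 0.54, Rptn from -0.71 to 2.55, S100a10 from -0.30 to 0.088, S100a14 from -0.024 to 0.33, S100a16 from -0.37 to 0.19, S100a9 from -1.65 to 0.95, Sprr1a from -2.05 to 0.66, Sprr1b from -1.44 to 1.82, Sprr2h from -1.78 to 1.05, Tchh from -0.99 to 0.17 and Tchhl1 from -1.16 to 0.52. Near 0, direction also turned for Flg2 (-0.0088 with library size, -0.048 with the replicate block), Lce1a1 (-0.063 with library size, -0.0066 with RLE, -0.048 with upper quartile, -0.15 with the block), Sprr1b (0.094 with the block) and Tchhl1 (-0.076 with DESeq2, -0.02 with library size, -0.0033 on every gene with at least 1 count, -0.012 with RLE, -0.038 with upper quartile, -0.22 with the block). Of 180 values for 18 named genes in MOF cKO 163 kept direction and side of the threshold, and of 230 values for 23 genes in Kansl1 cKO 180 did.

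The labels do not say that replicate numbers mark pairs. Deviations of libraries with the same number had correlations of 0.206 in the E16.5 and -0.202 in the P0.5 experiment. With the replicate block, 10 members were called higher and 1 lower in MOF cKO, S100a8 being the call gained, and 0 in Kansl1 cKO, also with the crossed pairing, an alternative chosen after seeing the data. Depth limits the 28 of 59 members with under 10 counts in every E16.5 library, which were not tested.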
